A study of Mus musculus with 6 samples.

Results

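The genes described here are 47 genes of DNA damage sensing and repair, chosen by name from a table of 24972 gene rows; all 47 had a row. They cover the damage-activated kinases, the sensors and mediators of double-strand breaks, homologous recombination, non-homologous end joining, base excision and single-strand break repair, nucleotide excision repair, mismatch repair, direct reversal, the Fanconi anaemia pathway, translesion synthesis and the supply of deoxynucleotides. RNA came from cardiomyocytes of MX1gfp mice, a reporter strain carried by both groups, 48 hours after 1 intraperitoneal injection. The vehicle group (3 mice) received 100 microlitres of sterile phosphate-buffered saline, and the doxorubicin group (3 mice) received 25 mg of doxorubicin per kg of body weight in the same volume. The labels state neither sex nor age. Doxorubicin is an anthracycline that traps topoisomerase II on DNA and leaves double-strand breaks. The myocytes were enriched from digested ventricles by settling under gravity and were not sorted, so other heart cells can contribute RNA.

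Cells answer a DNA break in steps. Sensor complexes bind the lesion, the kinases ATM, ATR and DNA-PK phosphorylate histone H2AX and checkpoint proteins, and p53 raises a set of target genes that includes several repair genes. Breaks are then joined directly by the Ku proteins and ligase IV, or copied from a sister chromatid by homologous recombination in cells that replicate their DNA. Damaged bases are cut out by glycosylases such as uracil-DNA glycosylase, after which the APE1 nuclease, polymerase beta and the XRCC1 and ligase III pair refill the gap. Adult cardiomyocytes seldom divide and hold many mitochondria, whose DNA depends largely on base excision repair.

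Across the 47 genes the values did not move in 1 direction. Of the 40 members with a mean of at least 10 normalized read counts over the 6 libraries, 20 had a positive and 20 a negative log2 fold change (doxorubicin minus vehicle, each as log2 of the value plus 1), where 49.6% of all 12477 genes tested were positive. The median was -0.003 against -0.005 over all genes tested. The 5th and 95th percentiles of the repair genes were -0.62 and 0.62, against -1.09 and 1.28 over all genes tested. With limma and Benjamini-Hochberg adjustment over all genes tested, 0 members were called higher and 0 lower at an adjusted p under 0.05, where the background was 0% higher and 0% lower. The smallest adjusted p among the members was 0.086. Unadjusted p-values were under 0.05 for 2 higher and 5 lower members, against 16.7% and 19.3% of all genes tested.

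**Figure D1:**
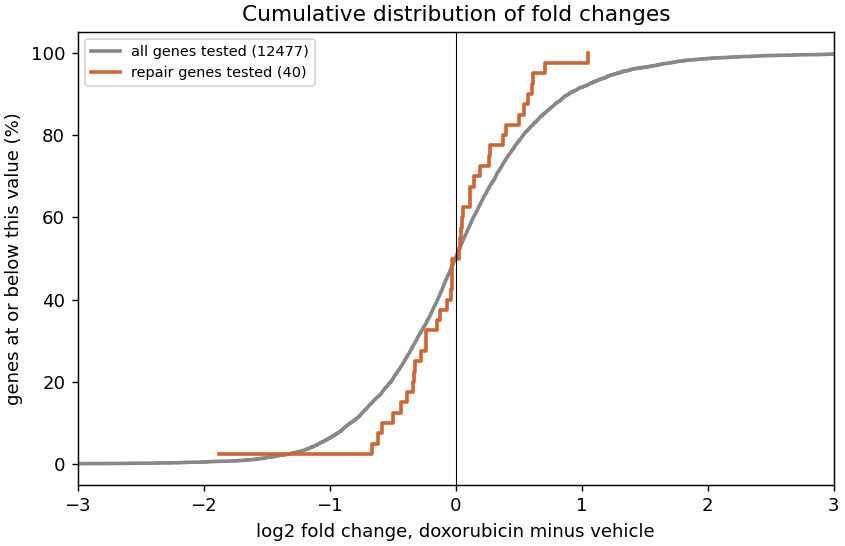
Cumulative share of genes (vertical axis, percent) at or below each log2 fold change of doxorubicin minus vehicle (horizontal axis), for all 12477 genes tested (grey) and the 40 repair genes tested (orange). Both curves cross the middle near 0; the 5th to 95th percentiles span -0.62 to 0.62 for the repair genes and -1.09 to 1.28 for all genes, and the lowest repair gene is Ung at -1.88.

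The 3 libraries of a group were fully separate in 7 members. Ung, Apex1, Polb and Xrcc6 were lower in every doxorubicin library than in any vehicle library, and Mdc1, Msh6 and Ddb2 were higher. The shares, 3 of 40 higher and 4 of 40 lower, lay below the background of 19.2% higher and 22.6% lower over all genes tested. When each library was scaled to the same total, which moved the median of all genes tested from -0.005 to 0.29, the numbers were 13 higher and 3 lower, against 36.7% and 10.1% of all genes tested. The other 33 members had overlapping groups and log2 fold changes from -0.62 to 0.71.

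The promoters of 5 of these 7 genes are shown because they surround annotated starts of genes whose groups were separate. The values are per gene, so the start that gave the reads is not known. They are RefSeq windows of 250 bases before to 50 after an annotated start on GRCm38.p6. Each is written 5′ to 3′ on the strand of the gene. In Ung, Xrcc6 and Mdc1 that start lies inside the span of the gene given with its values. For Xrcc6 the whole window, from 82016119, lies inside a span that begins at 81987833. The table matched 36 of the 47 members, with 43 windows. Capitals mark matches on either strand to the GC box (GGGCGG), the CCAAT box (CCAAT) and E2F (TTTCCCGC or TTTGGCGC), and neighbouring matches may overlap. The first 3 belong to genes that were lower after doxorubicin and the last 2 to genes that were higher.
Ung (chr5:114130185-114130484, plus strand): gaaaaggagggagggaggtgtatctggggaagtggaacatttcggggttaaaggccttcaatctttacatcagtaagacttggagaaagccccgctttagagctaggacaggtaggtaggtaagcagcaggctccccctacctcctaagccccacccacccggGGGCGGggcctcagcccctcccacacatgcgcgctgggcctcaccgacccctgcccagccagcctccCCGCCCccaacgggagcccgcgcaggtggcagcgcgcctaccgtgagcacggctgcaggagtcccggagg
Apex1 (chr14:50924699-50924998, plus strand): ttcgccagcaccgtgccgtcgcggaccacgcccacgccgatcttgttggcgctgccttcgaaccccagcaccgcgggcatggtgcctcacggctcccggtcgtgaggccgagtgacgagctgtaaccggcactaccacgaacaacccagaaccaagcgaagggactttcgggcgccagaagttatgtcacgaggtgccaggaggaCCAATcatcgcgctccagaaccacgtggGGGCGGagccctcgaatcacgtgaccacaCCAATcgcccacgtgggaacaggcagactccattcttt
Xrcc6 (chr15:82016119-82016418, plus strand): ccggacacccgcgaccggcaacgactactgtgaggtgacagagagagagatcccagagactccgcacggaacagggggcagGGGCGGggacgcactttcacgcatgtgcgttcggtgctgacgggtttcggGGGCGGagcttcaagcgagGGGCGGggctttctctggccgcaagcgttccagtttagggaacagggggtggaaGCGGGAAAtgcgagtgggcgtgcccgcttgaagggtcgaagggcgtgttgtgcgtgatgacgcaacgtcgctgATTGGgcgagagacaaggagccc
Msh6 (chr17:87974800-87975099, plus strand): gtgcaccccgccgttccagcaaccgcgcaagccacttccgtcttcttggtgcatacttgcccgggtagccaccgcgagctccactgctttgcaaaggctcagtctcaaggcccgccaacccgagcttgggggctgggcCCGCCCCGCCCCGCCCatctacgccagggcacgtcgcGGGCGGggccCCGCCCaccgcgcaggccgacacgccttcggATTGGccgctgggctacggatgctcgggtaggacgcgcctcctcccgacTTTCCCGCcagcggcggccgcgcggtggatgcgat
Mdc1 (chr17:35841248-35841547, plus strand): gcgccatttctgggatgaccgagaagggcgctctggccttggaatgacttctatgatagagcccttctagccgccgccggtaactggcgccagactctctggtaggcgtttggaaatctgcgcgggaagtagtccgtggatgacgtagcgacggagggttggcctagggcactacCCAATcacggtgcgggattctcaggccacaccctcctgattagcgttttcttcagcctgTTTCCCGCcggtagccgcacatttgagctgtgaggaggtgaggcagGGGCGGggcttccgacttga

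All 5 windows hold at least 1 GC box, and 4 of the 5 hold a CCAAT box, the exception being Ung. An E2F match stands in Xrcc6, which was lower, and in Msh6 and Mdc1, which were higher, so these letters did not go with 1 direction. Over all 32851 windows of the same length, 35.7% held a GC box, 37.4% a CCAAT box and 1.56% an E2F match. The 43 windows of the repair genes came from 36 genes, so some genes are counted more than once. Over these 43 windows the shares were 69.8%, 46.5% and 11.6%, the last from 5 windows. These matches describe the letters in the windows and were not tested against the expression values.

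The 3 doxorubicin libraries did not resemble each other equally. In doxorubicin replicate 1, 24 of the 40 members lay within the range of the vehicle libraries, against 11 in replicate 2 and 9 in replicate 3. The same shares over all genes tested were 36.0%, 19.9% and 14.6%. Without replicate 1, limma called 6 members higher (Polk, Ercc1, Rad52, Lig1, Mdc1 and Msh6) and 6 lower (Ung, Parp1, Xrcc6, Apex1, Polb and Trp53bp1), against a background of 19.3% higher and 21.8% lower over all genes tested. In 6 of these 12 genes the value in replicate 1 also lay outside the vehicle range on the same side. With library weights, which count replicate 1 less, limma called 3 members higher and 5 lower, against 15.7% and 18.6% of all genes tested. Results below are given with all 6 libraries, and also without that library for the 12 genes called in its absence.

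Several properties of the libraries moved with treatment. The estimated depth, from the spacing of low values, was 7730000 to 11400000 reads with vehicle and 3670000 to 6160000 after doxorubicin, so all 3 doxorubicin libraries were the shallower ones. The summed level of 8 ventricular cardiomyocyte markers lay between 660848 and 812039 with vehicle, and at 601166, 196996 and 165496 in doxorubicin replicates 1 to 3. The summed level of 10 macrophage markers was 2583 to 2791 against 4238, 7421 and 15615, and that of 8 endothelial markers 13112 to 16872 against 20433 to 26390. The 8 fibroblast markers summed to 6236 to 8274 against 8639 to 22816, a difference that came mostly from Dcn. Without Dcn the sums overlapped, at 3725 to 5369 and 4744 to 5526. Gene by gene, 7 of the 8 fibroblast markers had a positive and 1 a negative log2 fold change. Dcn, Pdgfra and Tcf21 were separate and higher, and 0 were separate and lower. The 8 mural markers summed to 10201 to 15105 and 11672 to 13903, and the 8 lymphocyte markers were near 0, at 17.7 to 34.3 and 7.22 to 81.8. Log2 fold changes were positive in 4 and negative in 4 mural markers, and positive in 7 and negative in 1 endothelial marker. They were negative in all 8 cardiomyocyte markers and positive in all 10 macrophage markers. No defining marker of these lists was at 0 in every library. Fewer cardiomyocytes in a preparation and less RNA of a gene per cardiomyocyte cannot be told apart in these bulk samples, and the part of these shifts in the results below was not tested.

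**Figure D2:**
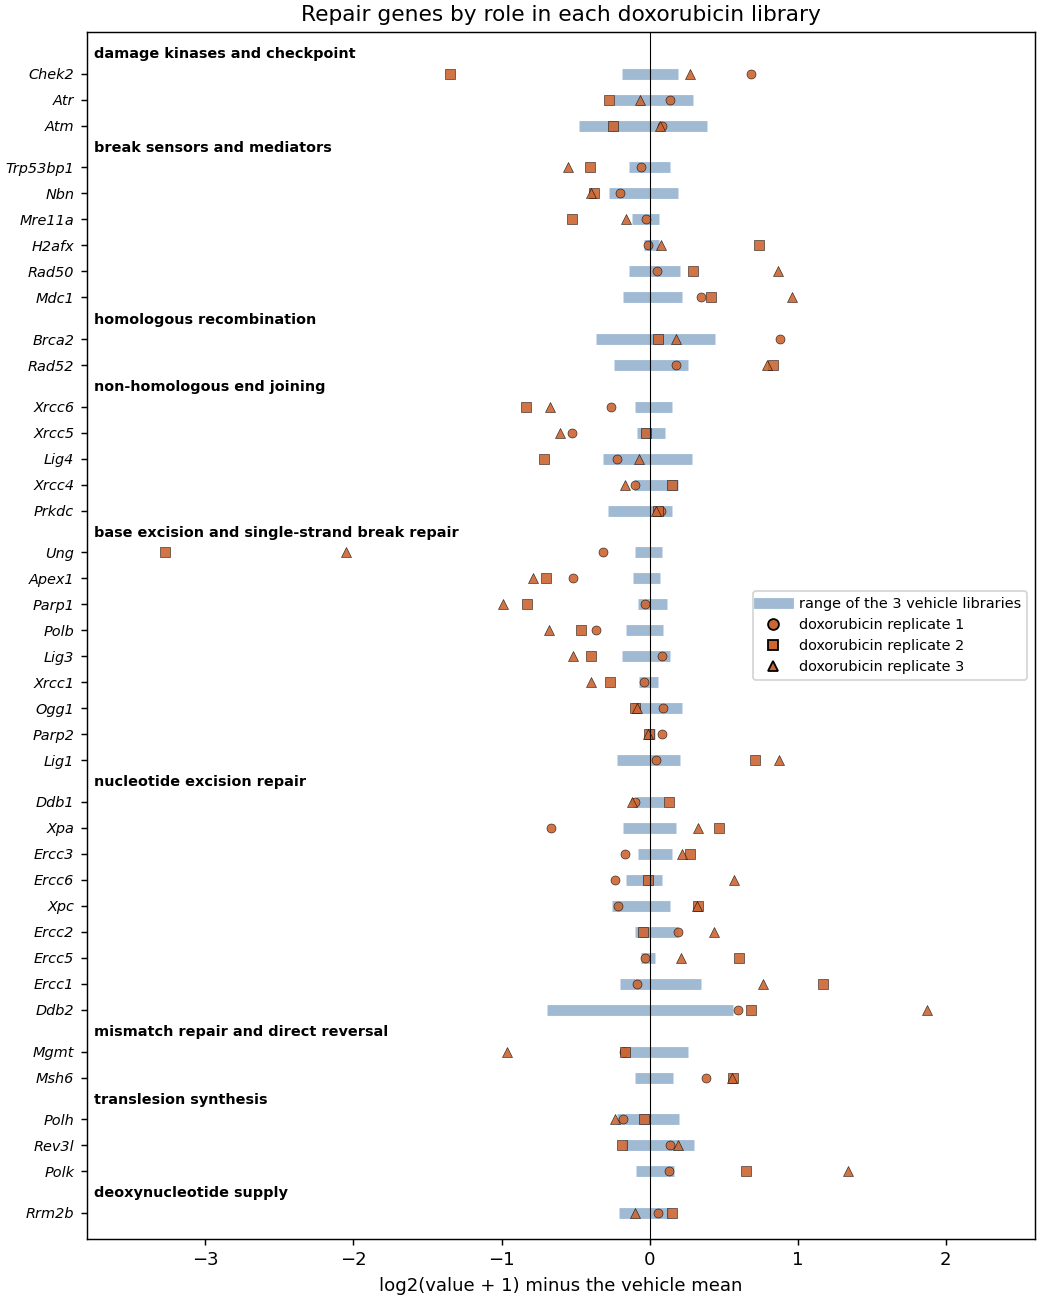
Each of the 40 repair genes tested, grouped by role: log2(value + 1) minus the mean of the vehicle libraries (horizontal axis) in doxorubicin replicates 1 (circle), 2 (square) and 3 (triangle), with the range of the 3 vehicle libraries as a blue bar. Base excision genes lie mostly left of 0 (7 of 9, and 4 of 9 at equal totals), nucleotide excision genes mostly right of 0 in replicates 2 and 3, and replicate 1 often lies inside the bar.

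Base excision and single-strand break repair held the most negative log2 fold changes of single repair genes, those of Ung, Apex1 and Parp1. Of its 9 members tested, 7 had a negative and 2 a positive log2 fold change (4 and 5 at equal totals), with a median of -0.28, and the groups were separate in 3 of them, all lower, where 22.6% of all genes tested were separate and lower. Taken against the vehicle mean, the medians of these 9 genes were -0.03, -0.40 and -0.52 in doxorubicin replicates 1, 2 and 3.

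Ung encodes uracil-DNA glycosylase, which removes uracil from nuclear and mitochondrial DNA. Ung (chromosome 5, 114130366 to 114139321, GRCm38) had 198, 182 and 208 normalized read counts in the vehicle libraries, in the order of their replicate numbers, and 157, 19.3 and 46.5 in the doxorubicin libraries. All doxorubicin libraries were below all vehicle libraries, replicate 1 by a small margin and replicates 2 and 3 by far. The means were 196 ± 12.7 and 74.4 ± 73.1 (SD, n = 3 in each group), or -1.88 on the log2 scale (standard error 0.64, adjusted p 0.0939 by limma). It was -2.66 (standard error 0.33, adjusted p 0.0008 by limma) without doxorubicin replicate 1 and -1.18 without replicate 2. Its limma adjusted p ran from 0.0008 to 0.259 over the alternative settings.

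Apex1 encodes the APE1 nuclease that cuts the strand at the site a glycosylase leaves. Apex1 (chromosome 14, 50924949 to 50927188) had 138, 157 and 154 in the vehicle libraries and 104, 91.6 and 86.2 in the doxorubicin libraries. The groups did not overlap, and replicate 1 lay on the same side as the others. From 149.6 ± 10.2 to 93.9 ± 9.08 (SD, n = 3 in each group), the log2 fold change was -0.67 (standard error 0.16, adjusted p 0.0859 by limma) and stayed between -0.74 and -0.61 when any 1 library was left out. It was -0.37 at equal totals, and without doxorubicin replicate 1 it was called, at -0.74 (adjusted p 0.00867 by limma; range over the alternatives 0.00867 to 0.256). Exons of Apex1 overlap those of Pip4p1 on the opposite strand over up to 684 bases, and whether counting used strand is not stated. Pip4p1 read 112 to 143 in the vehicle and 113 to 260.1 in the doxorubicin libraries.

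Polb, which encodes the polymerase that fills the gap, lies at chromosome 8, 22628119 to 22653464. Its values were 244, 248 and 209 in the vehicle libraries against 181, 169 and 145 in the doxorubicin libraries. The highest doxorubicin value was below the lowest vehicle value. The log2 fold change was -0.50 (standard error 0.16, adjusted p 0.0864 by limma). Without doxorubicin replicate 1 it was called, at -0.57 (adjusted p 0.0238 by limma; range over the alternatives 0.0238 to 0.349). At equal totals the groups of Polb overlapped and the difference was -0.20.

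Parp1 encodes the sensor that marks strand breaks with poly(ADP-ribose), and its relative Parp2 shares that activity. Parp1 (chromosome 1, 180568891 to 180600999) had 557, 541 and 619 in the vehicle libraries and 559, 321 and 287 in the doxorubicin libraries. Replicate 1 lay inside the vehicle range while replicates 2 and 3 were well below it. With all libraries the log2 fold change was -0.62 (standard error 0.25, adjusted p 0.126 by limma), and without replicate 1 it was -0.91 (standard error 0.14, adjusted p 0.00216 by limma; range over the alternatives 0.00216 to 0.315). At equal totals it was -0.32. Parp2 was nearly the same in both groups, from 110.9 ± 2.55 to 112.7 ± 4.08 (SD, n = 3 in each group), or 0.02 on the log2 scale (standard error 0.14).

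The genes that seal the single-strand gap differed from each other. Xrcc1, the scaffold, and Lig3, its partner ligase, had log2 fold changes of -0.24 and -0.28 with overlapping groups (0.064 and 0.023 at equal totals). In both, doxorubicin replicates 2 and 3 were below every vehicle library and replicate 1 was not. Lig3 shares up to 1826 exon bases with Rffl on the opposite strand, which read 49.7 to 62.0 in the vehicle and 62.5 to 83.1 in the doxorubicin libraries. Lig1, the ligase of replication, had 43.8, 38.3 and 32.2 in the vehicle libraries and 39.0, 62.6 and 70.0 in the doxorubicin libraries, a log2 fold change of 0.54 (standard error 0.28, adjusted p 0.198 by limma). Without replicate 1 the difference of Lig1 was 0.79 (adjusted p 0.0294 by limma; range over the alternatives 0.0294 to 0.445), opposite in sign to that of Lig3 at -0.46. Ogg1, which removes oxidized guanine, did not differ beyond its spread, at 45.9 ± 6.42 and 44.7 ± 3.43 (SD, n = 3 in each group). Mutyh, which removes adenine paired with oxidized guanine, was under the minimum mean and was not tested, with 1.89, 2.78 and 8.997 in the vehicle and 4.24, 13.9 and 21.7 in the doxorubicin libraries.

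**Figure D3:**
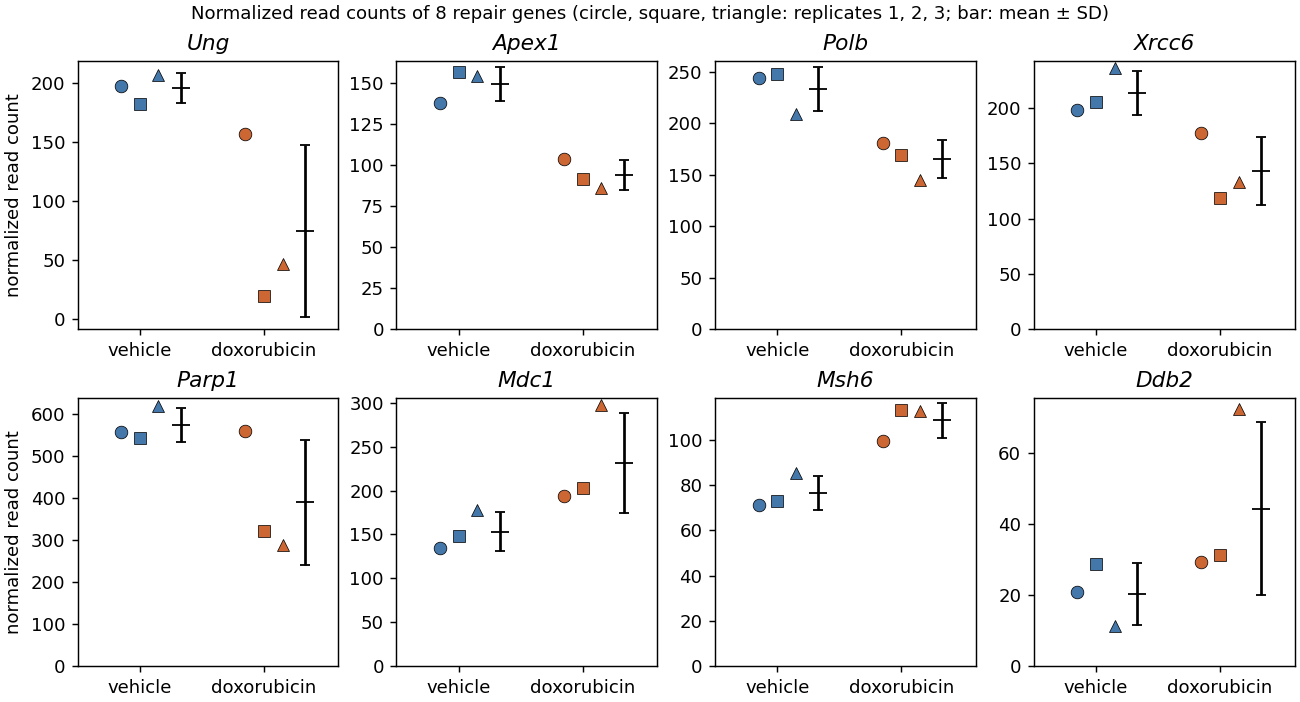
Normalized read counts (vertical axis, from 0) of 8 repair genes in the 3 vehicle (blue) and 3 doxorubicin (orange) libraries, with replicates 1, 2 and 3 as circle, square and triangle and mean ± SD as bars. Ung, Apex1, Polb and Xrcc6 are lower and Mdc1, Msh6 and Ddb2 higher in all doxorubicin libraries, while Parp1 in replicate 1 lies inside the vehicle range.

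Non-homologous end joining held the fourth separate lower gene. Of its 5 members, 1 had a positive and 4 a negative log2 fold change (2 and 3 at equal totals). Their median was -0.33, below that of the base excision members. Taken against the vehicle mean, the end joining medians were -0.22, -0.03 and -0.17 in doxorubicin replicates 1, 2 and 3. In replicates 2 and 3 the base excision median was the lower of the 2, so this order depended on the library. Xrcc6 and Xrcc5 encode Ku70 and Ku80, the ring that first binds a broken end. Xrcc6 (chromosome 15, 81987833 to 82040085) had 198, 206 and 236 in the vehicle libraries and 177, 119 and 133 in the doxorubicin libraries. Both groups were again separate, with replicate 1 nearest to the vehicle libraries. The log2 fold change was -0.59 (standard error 0.19, adjusted p 0.0878 by limma), and -0.75 (adjusted p 0.00764 by limma; range over the alternatives 0.00764 to 0.262) without replicate 1. It was -0.29 at equal totals. Exons of Xrcc6 overlap Desi1 on the opposite strand over up to 282 bases, and Desi1 read 217 to 267 in the vehicle and 182 to 231 in the doxorubicin libraries.

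Xrcc5 had 178, 187 and 204 against 131, 186 and 124, with replicate 2 inside the vehicle range and replicates 1 and 3 below it. Its log2 fold change was -0.39 (standard error 0.19, adjusted p 0.183 by limma), and -0.086 at equal totals. The library that was lowest for Xrcc6, replicate 2, was thus the highest doxorubicin library for Xrcc5. Prkdc, the catalytic subunit of DNA-PK that Ku recruits, had 98.6, 133 and 132 in the vehicle and 127, 125 and 124 in the doxorubicin libraries. The doxorubicin values of Prkdc lay within the vehicle range, and the log2 fold change was 0.06 (standard error 0.17). Xrcc4, the scaffold of the ligation step, differed by -0.04 (standard error 0.20), and its ligase Lig4 by -0.33 (standard error 0.25), both with overlapping groups. At equal totals Xrcc4 and Lig4 were 0.26 and -0.037.

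The damage kinases showed no separation. Atm, the kinase activated by double-strand breaks, had 116, 172 and 212 in the vehicle libraries and 171, 136 and 169 in the doxorubicin libraries. Atr, the kinase activated by single-stranded DNA, had 111, 127 and 162 against 146, 109 and 126. The doxorubicin values of Atm lay inside the vehicle range, and those of Atr inside it but for replicate 2. Their log2 fold changes were -0.03 (standard error 0.24) and -0.07 (standard error 0.20), and both signs depended on which library was left out. Chek2, the kinase downstream of ATM, had 50.1, 57.5 and 44.0 in the vehicle libraries and 81.5, 19.2 and 61.1 in the doxorubicin libraries. Replicate 2 was below and replicates 1 and 3 above every vehicle library, so the difference was -0.13 (standard error 0.49) with all libraries and 0.48 without replicate 2. Chek1, the kinase downstream of ATR and a gene of dividing cells, had 0 to 5.21 in any library and was not tested.

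Among break sensors and mediators, 3 members were above and 3 below 0 (4 and 2 at equal totals). Mdc1, the scaffold that reads phosphorylated H2AX, was the separate one. Mdc1 (chromosome 17, 35841495 to 35859670) had 135, 148 and 178 in the vehicle libraries and 194, 203 and 298 in the doxorubicin libraries. All doxorubicin values lay above all vehicle values, and replicate 3 was highest. The log2 fold change was 0.57 (standard error 0.21, adjusted p 0.104 by limma). It was 0.87 at equal totals, 0.38 without replicate 3, and 0.69 (adjusted p 0.032 by limma; range over the alternatives 0.032 to 0.256) without replicate 1.

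Trp53bp1, which recruits repair factors to the same chromatin and favours end joining, had 229.9, 253 and 279 in the vehicle libraries and 244, 191 and 172 in the doxorubicin libraries. Replicate 1 lay in the vehicle range and the other 2 below it. Its log2 fold change was -0.34 (standard error 0.18, adjusted p 0.202 by limma), opposite in sign to that of Mdc1. It was called without replicate 1, at -0.48 (adjusted p 0.0396 by limma; range over the alternatives 0.0396 to 0.871), and was -0.037 at equal totals. Tubgcp4, which shares up to 1873 exon bases with Trp53bp1 on the opposite strand, read 149.9 to 166 with vehicle and 144 to 175 with doxorubicin. H2afx, the gene of histone H2AX itself, had 79.3, 74.1 and 74.9 against 75.6, 128 and 80.2. Replicate 2 stood far above the vehicle libraries, replicate 3 just above them and replicate 1 among them, giving 0.27 (standard error 0.23, adjusted p 0.423 by limma). The 3 subunits of the MRN complex, which tethers and trims broken ends, did not share a sign. Rad50 differed by 0.40 (standard error 0.24) and Mre11a and Nbn by -0.24 and -0.32 (standard error 0.19 and 0.17), all with overlapping groups. At equal totals Rad50, Mre11a and Nbn were 0.70, 0.063 and -0.024.

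Homologous recombination was represented mostly by transcripts near the floor of the data. Brca1, Palb2 and Rad54l had means under 10 and were not tested. Brca1 had 1.92 to 3.86 in the vehicle and 3.61 to 8.72 in the doxorubicin libraries, and Rad54l was listed at 0 in 3 of the 6 libraries. Brca2 had 12.3, 22.2 and 15.2 against 30.5, 16.8 and 18.3, so the highest value was in doxorubicin replicate 1. Rad52, a factor that anneals single strands, was the 1 member of this group called without replicate 1. It had 38.6, 31.6 and 27.1 in the vehicle libraries and 36.4, 58.0 and 56.5 in the doxorubicin libraries, which overlap through replicate 1. Its log2 fold change was 0.60 (standard error 0.28, adjusted p 0.158 by limma), and 0.81 (adjusted p 0.0344 by limma; range over the alternatives 0.0344 to 0.385) without that library.

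The Fanconi anaemia genes, which act on crosslinks during replication, were likewise too low to test. Fancd2 had 1.87 to 4.24 in the vehicle libraries and 2.22, 14.8 and 3.09 in the doxorubicin libraries. Fanca had 7.83 to 12.5 against 14.8, 3.61 and 2.98. The 2 genes were thus high in different doxorubicin libraries. The 15 proliferation markers measured beside them summed to 562 to 637 in the vehicle libraries and 767, 547 and 650.4 in the doxorubicin libraries. Mki67, a marker of cycling cells, had 70.3, 49.2 and 60.1 in the vehicle libraries and 93.2, 6.03 and 10.2 in the doxorubicin libraries, highest in the library that also held the highest Brca2 and Fanca. Other markers of the list went the other way: Mcm3 and Mcm6, subunits of the replicative helicase, were higher in every doxorubicin library than in any vehicle library. Of the 10 markers tested, 5 were above and 5 below 0, with 3 separate and higher and 0 separate and lower. The part of cycling cells in these repair genes was not tested.

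In nucleotide excision repair the members and the other genes of the pathway had medians of opposite sign, though not at equal totals, where both were positive. Of 9 members, 8 had a positive and 1 a negative log2 fold change (9 and 0 at equal totals), with a median of 0.15, and 1 was separate, Ddb2. Taken against the vehicle mean, the medians of the 9 genes were -0.10, 0.33 and 0.33 in doxorubicin replicates 1, 2 and 3, so the median was below 0 in replicate 1. Of 12 other nucleotide excision genes, 4 were above and 8 below 0 (7 and 5 at equal totals), with a median of -0.24, and their medians in the 3 libraries were 0.05, -0.30 and -0.47.

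Ddb2 encodes the damaged-DNA binding subunit that finds lesions in chromatin. Ddb2 (chromosome 2, 91211545 to 91237132) had 20.9, 28.7 and 11.4 in the vehicle libraries and 29.3, 31.1 and 72.5 in the doxorubicin libraries. The groups are separate by 0.588 counts at their closest point, less than the worth of 1 read in those libraries (about 0.955 in vehicle replicate 2 and 1.055 in doxorubicin replicate 1). The log2 fold change of 1.05 (standard error 0.47, adjusted p 0.149 by limma) rested most on doxorubicin replicate 3, without which it was 0.64, and was 0.70 without vehicle replicate 3. Exons of Ddb2 overlap Acp2, a lysosomal phosphatase gene on the opposite strand, over up to 410 bases. Acp2 had 211 to 258 in the vehicle libraries and 264, 256 and 567 in the doxorubicin libraries, highest in the same library as Ddb2, and reads of the 2 genes cannot be told apart in the overlap without the use of strand.

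Ddb1, the partner of Ddb2 and a subunit of many ubiquitin ligases, differed by -0.03 (standard error 0.16), from 1739.7 ± 118 to 1708.9 ± 169 (SD, n = 3 in each group). Xpc, another lesion sensor, had 154, 117 and 152 in the vehicle libraries and 120.2, 176 and 175 in the doxorubicin libraries. Replicates 2 and 3 of Xpc were above every vehicle library and replicate 1 was among them, giving 0.15 (standard error 0.21, adjusted p 0.638 by limma). Ercc1, part of the nuclease that cuts on the 5′ side of the lesion, had 196, 139 and 134 in the vehicle libraries and 145, 348 and 262 in the doxorubicin libraries. Its log2 fold change was 0.62 (standard error 0.32, adjusted p 0.204 by limma). It was 0.97 (adjusted p 0.00955 by limma; range over the alternatives 0.00955 to 0.455) without replicate 1 and 0.34 without replicate 2. Cd3eap, which overlaps Ercc1 on the opposite strand over up to 106 bases, read 99.1 to 115 in the vehicle and 71.8 to 99.8 in the doxorubicin libraries.

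The remaining nucleotide excision genes had overlapping groups. Ercc5, the nuclease of the 3′ side, differed by 0.26, Ercc2 and Ercc3, the helicases of TFIIH, by 0.20 and 0.11, Ercc6, which couples repair to transcription, by 0.11, and Xpa, which verifies the lesion, by 0.04. Xpa had 34.7 in doxorubicin replicate 1, below every vehicle library (49.0 to 63.1), and 77.3 and 70.1 in replicates 2 and 3, above every one.

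Msh6, the mismatch sensor subunit, showed the most even difference among the higher genes. Msh6 (chromosome 17, 87975050 to 87990892) had 71.4, 73.1 and 85.3 in the vehicle libraries and 99.7, 113 and 113 in the doxorubicin libraries. All doxorubicin libraries, replicate 1 included, were above the vehicle libraries. From 76.6 ± 7.59 to 108.6 ± 7.74 (SD, n = 3 in each group), the log2 fold change was 0.50 (standard error 0.17, adjusted p 0.0903 by limma), and it stayed between 0.45 and 0.58 when any 1 library was left out. Msh6 was called without doxorubicin replicate 1, at 0.56 (adjusted p 0.0378 by limma; range over the alternatives 0.0378 to 0.256), and was 0.80 at equal totals. An overlap of up to 34 bases with Fbxo11 on the opposite strand is small, and Fbxo11 read 355 to 406 in the vehicle and 425 to 432 in the doxorubicin libraries. Mgmt, which takes alkyl groups off guanine, differed by -0.43 (standard error 0.28), with doxorubicin replicate 3 at 36.6 and the rest at 63.0 to 86.9. At equal totals Mgmt was -0.14.

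The translesion polymerases copy past damage that has not been removed. Polk, the polymerase kappa gene and a p53 target in mice, had 51.9, 51.2 and 61.5 in the vehicle libraries and 59.9, 86.3 and 140.1 in the doxorubicin libraries. Replicate 1 was inside the vehicle range, and the log2 fold change was 0.71 (standard error 0.31, adjusted p 0.143 by limma). Without that library it was 1.00 (adjusted p 0.0148 by limma; range over the alternatives 0.0148 to 0.343), and without replicate 3 it was 0.39. Polh, which copies past ultraviolet lesions, differed by -0.15 (standard error 0.19), and Rev3l, the catalytic subunit of polymerase zeta, by 0.05 (standard error 0.19), both with overlapping groups. Rrm2b, the p53-induced subunit of ribonucleotide reductase that supplies deoxynucleotides in cells that do not divide, had 299, 378 and 365 in the vehicle libraries and 361, 384 and 322 in the doxorubicin libraries. The groups of Rrm2b overlapped, at 0.04 (standard error 0.15, adjusted p 0.881 by limma). The p53 targets Polk and Rrm2b thus gave log2 fold changes of 0.71 and 0.04 in the same libraries in which Cdkn1a, a p53 target of cell cycle arrest, had 2.70. At equal totals Polk and Rrm2b were 1.005 and 0.34. Cdkn1a is a single gene that stands in none of the lists used here. No gene was called with all 6 libraries, and the part of p53 in these values was not tested.

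**Figure D4:**
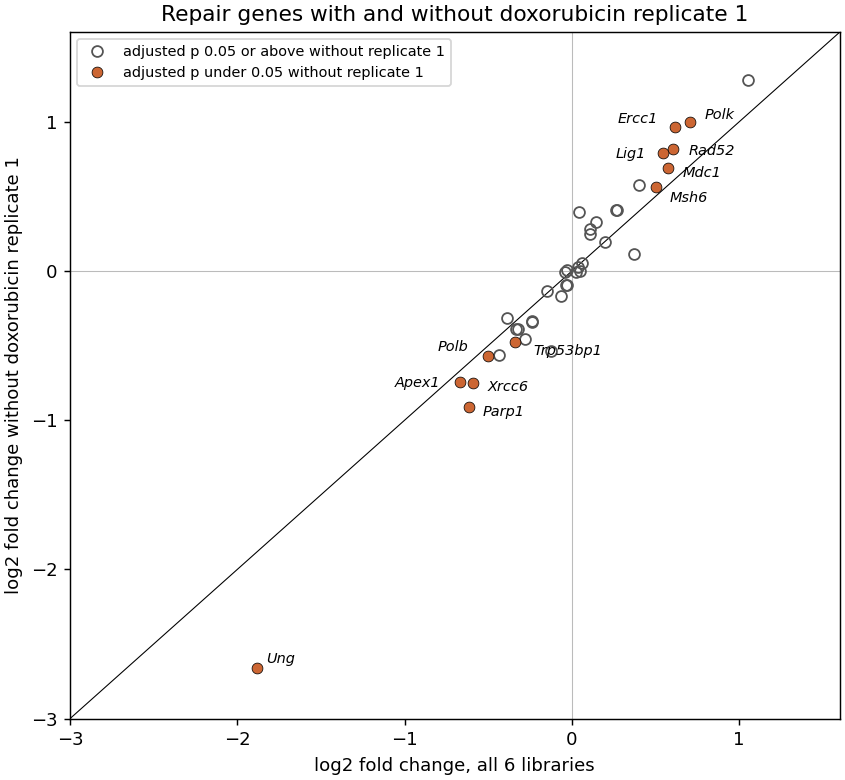
Log2 fold change of the 40 repair genes tested with all 6 libraries (horizontal axis) and without doxorubicin replicate 1 (vertical axis), with the line of equality. Filled points are the 12 genes with a limma adjusted p under 0.05 without that library, 6 higher and 6 lower, and Ung lies farthest from 0 at -1.88 and -2.66.

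A further 92 repair genes outside the 47 were measured as a comparison, of which 80 reached the minimum mean. With limma 0 were called higher and 0 lower. The groups were separate in 17 higher and 14 lower, or 21.2% and 17.5%, near the 19.2% and 22.6% of all genes tested, and the median was 0.03. Among those with a mean of at least 50 and separate groups, the highest differences were those of Timeless, a replication fork protector, Rbbp8, the resection factor CtIP, and Wrn, the Werner helicase. Timeless had 152, 122 and 137 in the vehicle and 234, 248 and 398 in the doxorubicin libraries, a log2 fold change of 1.05 (standard error 0.23, adjusted p 0.0859 by limma). Rbbp8 and Wrn differed by 0.83 and 0.62. Among the lowest were Polq, the polymerase of microhomology joining, at -1.66, and the alkylation reversal enzyme Alkbh3 at -0.65. Polq had 99.8, 129 and 158 against 85.9, 32.5 and 21.8. Of the other base excision genes, 9 were tested, with 6 above and 3 below 0 (8 and 1 at equal totals) and a median of 0.04.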

How the data were processed

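RNA was measured in 6 libraries of enriched cardiomyocytes, 3 from vehicle and 3 from doxorubicin mice, grouped by their titles. The authors deposited normalized read counts, a signal per gene and library with no value below 0. Alignment was with STAR in BaseSpace, per the labels' protocols, to mm10 with RefSeq genes, and the submitters' processing notes give STAR 2.6.1a and also name Salmon. How the values were normalized, filtered or counted by strand is not given in the sources used here. They are not whole numbers, so no count model was used.

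Genes whose mean over the 6 libraries reached 10 were tested on log2(value + 1) with limma 3.58.1 in R 4.3.3, with a mean-dependent prior variance, two-sided, adjusted by Benjamini-Hochberg over all 12477 genes at 0.05. The fit was tested on simulated data. The simulation gave both groups the same spread, with no library apart from the rest and no shift in depth, unlike the libraries here. The 1 added to each value before the log understates the change of low genes. Groups were called separate, or not overlapping, when the lowest value of 1 group exceeded the highest of the other. With 3 against 3, the smallest p of an exact permutation test is 0.10, and none is reported for single genes. P-values set the difference between the groups against the spread between mice within them, pooled over both groups and combined with the prior variance. Gene positions came from RefSeq (GRCm38.p6; H2afx matched by its synonym) and exon overlaps from GENCODE M21, both of the assembly that mm10 denotes.

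The members and lists were chosen with earlier results of these data known. Values in every library are given for members whose groups do not overlap and for Atm, Atr, Prkdc, H2afx, Trp53bp1, Parp1, Ddb2, Xpc and Rrm2b; of the other 92 repair genes, the 3 highest and 3 lowest differences with a mean of at least 50 and separate groups are named, except 1 that is not reported here. Other per-library values were chosen for printing after they were seen. Depth was estimated by dividing each library's total by its most common low value, and is approximate. Alternatives were other pseudocounts, filters, scalings and variance priors, a replicate block, leaving out each library and, added after the data were seen, library weights. Plots were made in Python 3.11.15 with matplotlib 3.10.9.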

Additional observations from a re-analysis of the deposited data

How the results depend on the processing

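The number of genes called depended on 1 library. Without doxorubicin replicate 1 limma called 2409 genes higher and 2718 lower, and over the fits that leave out 1 library the numbers ran from 0 to 2409 and from 0 to 2718. For the repair genes the lowest and highest were 0 and 6 in each direction. Library weights, chosen after the data were seen, gave doxorubicin replicate 1 a weight of 0.277 and called 1954 genes higher and 2318 lower, among them 3 repair genes higher (Ercc1, Msh6 and Polk) and 5 lower (Ung, Apex1, Parp1, Xrcc6 and Polb). All other settings (pseudocounts of 0.5 and 8, no filter, a minimum mean of 50, equal totals, quantile normalization, no trend, robust estimation) called 0 genes, with 3919 to 4936 genes at an unadjusted p under 0.05.

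Repair genes with separate groups numbered 13 higher at equal totals, against 36.7% of all genes tested, and 3 to 13 higher and 4 to 12 lower when 1 library was left out, against 20.5% to 31.6% and 24.0% to 32.9% of all genes tested. The median of the repair genes was 0.30 at equal totals, 0.022 with no filter, -0.034 with a minimum mean of 50, -0.044 with quantile normalization and -0.043 to 0.031 when 1 library was left out.

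Of 635 values for the 40 tested members under 16 alternatives, 574 kept their sign and their side of the threshold, 20 passed it newly and 41 changed sign. In 24 members no alternative changed the sign. The other 16 had a log2 fold change no farther from 0 than 0.28. At equal totals, which adds about the same amount to every gene, the values were 0.27 for Atm, 0.23 for Atr, 0.17 for Chek2, 0.27 for Ddb1, 0.023 for Lig3, 0.063 for Mre11a, 0.26 for Ogg1, 0.15 for Polh, 0.064 for Xrcc1 and 0.26 for Xrcc4. With library weights Ddb1 was 0.039, Rev3l -0.13 and Xrcc4 0.066. With quantile normalization Ddb1 was 0.19, Ercc6 -0.014, Parp2 -0.034 and Xpa -0.10. When 1 library was left out, Atm ran from -0.27 to 0.16, Atr from -0.19 to 0.081, Chek2 from -0.53 to 0.48, Ddb1 from -0.11 to 0.022, Ercc6 from -0.12 to 0.28, Ogg1 from -0.093 to 0.078, Parp2 from -0.008 to 0.039, Prkdc from -0.080 to 0.14, Rev3l from -0.036 to 0.20, Rrm2b from -0.067 to 0.11, Xpa from -0.17 to 0.40 and Xrcc4 from -0.13 to 0.059. The cause was not tested.

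Same-numbered libraries deviated from their group means with correlations of -0.128, 0.033 and -0.093 across genes. Those of differently numbered libraries ran from -0.183 to 0.223. With 3 libraries in each group, these values cannot decide whether the replicate numbers pair the samples. With the replicate block limma called 0 genes higher and 0 lower, 0 repair genes among them, and 3708 genes had an unadjusted p under 0.05. The 7 members that were not tested had at most 21.7 in any library.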

Other observations

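Xist and Y-linked transcripts divided the libraries across treatment: vehicle replicate 3 and doxorubicin replicates 1 and 3 held Xist, and vehicle replicates 1 and 2 and doxorubicin replicate 2 held Y-linked transcripts. The 7 repair genes with separate groups had the same direction within each of these 2 sets of 3 libraries, which their separation fixes in advance. The sizes differed in some genes; each set has 1 vehicle or 1 doxorubicin library, and the difference between the sets was not tested. Chek2 differed by 0.67 on the log2 scale (doxorubicin minus vehicle) among the libraries with Xist and by -1.44 among those with Y-linked transcripts. Xrcc5 differed by -0.67 and 0.03, Ddb2 by 1.93 and 0.33, and Ung by -1.27 and -3.23. Apex1 was nearly the same in both, at -0.70 and -0.68.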
